A study of Mus musculus with 75 samples.

Results

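Immediate early genes are transcribed within minutes of a stimulus without new protein synthesis, and their messages are usually short-lived. The 10 described here are Fos, Fosb, Jun, Junb, Egr1, Atf3, Ier2, Ier3, Nr4a1 and Zfp36. They were chosen by symbol, and all 10 were found among the 21051 genes of the count table for untreated mice and for 2 h after injection, and among the 21076 genes of the count table for 24 h. The study sequenced 75 bulk RNA libraries from adult mice, made from what the labels call enteric glial cells (EGC), the glia of the nerve plexuses of the gut wall. It asked how these cells differ between colon and small intestine, how they respond to lipopolysaccharide (LPS, a bacterial cell wall component) and whether the receptor Gpr37 changes that response.

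The mice carried Plp1eGFP, a transgene for enhanced green fluorescent protein under a glial promoter. Untreated Plp1eGFP mice gave 5 colon and 6 small intestine libraries from the myenteric plexus, which lies between the muscle layers, and 5 colon and 6 small intestine libraries from the submucosal plexus. Plp1eGFP mice killed 2 h after a single intraperitoneal injection of LPS at 2 mg/kg, or of phosphate-buffered saline (PBS), gave 4 libraries from the myenteric plexus of each region and treatment. The same injections were followed for 24 h in Gpr37WT; Plp1eGFP mice, called wild type here, and Gpr37-/-; Plp1eGFP mice, called knockout. Those gave, from the myenteric plexus, 6 small intestine and 4 colon libraries of wild types after PBS, 4 and 5 after LPS, 4 and 5 of knockouts after PBS, and 5 and 4 after LPS. All groups therefore carry the Plp1eGFP transgene, and both sexes were used. How the cells were separated from the gut wall is not given in the sources used here. The untreated and 2 h labels give each library a sex and a number but do not say that the number is a mouse. Whether libraries of one group and sex came from separate mice is thus not stated, and the p-values there measure only the spread between libraries. The 24 h labels give mouse numbers.

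Fos and Fosb encode proteins that pair with Jun and Junb to form the transcription factor AP-1. Egr1 (a zinc finger protein), Nr4a1 (an orphan nuclear receptor) and Atf3 (a bZIP factor of the stress response) are transcription factors too. Ier2 encodes a nuclear regulator of transcription, and Ier3 a protein that protects cells from death and modulates NF-kappaB signalling. Zfp36 encodes tristetraprolin, which binds AU-rich elements in the 3′ untranslated region (3′UTR) of cytokine and other short-lived messages and speeds their decay. Growth factors, calcium and inflammatory signals switch these genes on through the MAP kinases, which act on serum response factor at CArG boxes and on CREB at cAMP-response elements, and Toll-like receptor signals add NF-kappaB at kappaB sites. Mechanical handling and warm enzymatic digestion of tissue also switch on the same genes, often together with heat shock genes.

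The letters that mark short-lived messages and inducible promoters are shown for the members that carry them. The full nonamer UUAUUUAUU, the letters that tristetraprolin binds, was found in the 3′UTR of 2 of the 10 members, Fos and Zfp36 itself, and in 7.59% of the 20948 genes with an annotated 3′UTR (longest coding transcript per gene, GENCODE M21 on GRCm38). The shorter AUUUA, which the nonamer contains, occurred in 9 of 10 members and in 64.7% of genes. Ier3 had the most AUUUA per length among the members, 5 in 613 bases, and Ier2 had none in 755. The windows below run 5′ to 3′ in the transcript, with the nonamer in capitals, at chr12:85477103-85477131 on the plus strand for Fos and chr7:28376951-28376979 on the minus strand for Zfp36 (GRCm38).
Fos: uguuuucaauUUAUUUAUUaagauggauu
Zfp36: uaugacgacuUUAUUUAUUguauuaagau

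Promoter sequence from RefSeq (GRCm38.p6) was matched for 8 of the 10 members, all but Egr1 and Ier2, and 5 motifs were searched on both strands in the 250 bases before the start. A CArG box was present in 1 of the 8 members (Zfp36) and in 1.467% of 32851 promoters. The cAMP-response core TGACG was present in 5 of 8 (Fos, Fosb, Junb, Atf3 and Nr4a1) and in 17.77% of promoters. A kappaB site was present in 3 of 8 (Fos, Fosb and Ier3) and in 3.899%, while the AP-1 site TGANTCA and the Egr site GCGTGGGCG were in 0 of 8, against 6.749% and 0.5358%. These are letter matches only, and sites farther from the start were not searched, so a member without a match here may still carry the motif. The lines below give, on the strand of the gene, the CArG box of Zfp36 (chr7:28379247-28379316, minus strand, positions -88 to -19 from the start), 2 of the 4 cAMP-response cores of Nr4a1, which read CGTCA here, the others starting at -233 and -213 outside the stretch shown (chr15:101266759-101266828, plus strand, -87 to -18), and the kappaB site of Ier3, which matches on the other strand (chr17:35821591-35821660, plus strand, -122 to -53), each in capitals.
Zfp36: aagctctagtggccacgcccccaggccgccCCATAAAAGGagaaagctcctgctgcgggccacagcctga
Nr4a1: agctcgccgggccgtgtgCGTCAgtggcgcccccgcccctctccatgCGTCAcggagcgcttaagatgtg
Ier3: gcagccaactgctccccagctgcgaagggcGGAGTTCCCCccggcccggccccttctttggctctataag

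The libraries held 1990744 to 33283346 counts (median 5724367). Of the glial markers, 10 genes that include Sox10 and S100b, all had counts in every group other than LPS colon at 24 h. There 1 of the 10 was at 0 in every wild-type library, and 1 in every knockout library. Their summed level was 6484 to 14820 counts-per-million (CPM) in the untreated myenteric libraries and 719 to 5931 in the submucosal ones. Markers of muscle, fibroblasts, macrophages and neurons each had counts in every group, so a level below is that of a mixed sample, and fewer cells of a type and less RNA per cell cannot be told apart. Gpr37 itself had 0 to 9 counts in the 18 knockout libraries, 10 of them at 0, and 0 to 158 in the 19 wild-type libraries. Of these wild types, 3 were at 0, the LPS-treated small intestine library of mouse 3 and the colon libraries of mice 5 and 8, and the colon library of mouse 3 had 2 counts. These 4, all after LPS, lie within the knockout range and are named as labelled; mouse 8 had 100 counts in small intestine. Whether reads were counted by strand is not given in the sources used here, and 4 members overlap other annotated genes on the opposite strand. These are the antisense genes Junos at Jun (689 bases shared) and Gm44710 at Zfp36 (1274), the protein-coding gene Prdx2 at Junb (351) and Gm24748 at Atf3 (108). The counts of these 4 members may thus hold reads of both.

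Divided by the length of each gene's longest coding transcript, Fos had the highest median of the members in every group except the 2 LPS groups at 2 h. Fosb had the lowest in every group. The order depends on the transcript chosen. In the untreated small intestine myenteric libraries the median was 264 CPM per kb for Fos, 99.4 for Ier2, 98.3 for Junb, 90.5 for Jun, 65.2 for Zfp36 and 53.2 for Egr1. Below these stood Ier3 at 42.1, Nr4a1 at 39.0, Atf3 at 20.6 and Fosb at 2.42. The ranges of Ier2 (40.4 to 165), Junb (61.5 to 299) and Jun (61.2 to 164) overlapped, so the order of these 3 is not resolved, whereas the lowest Fos library, at 227, stood above the highest of Jun and Ier2. After 2 h of LPS in the small intestine Junb took the first place at 751 CPM per kb, followed by Ier3 at 434, Fos at 351 and Zfp36 at 273. In the colon the order after LPS was Junb at 805, Zfp36 at 421, Ier3 at 384 and Fos at 312. Below Junb the small intestine ranges of Ier3 (307 to 491), Fos (233 to 478) and Zfp36 (210 to 464) overlapped, so the order of these 3 is not resolved. In the colon the range of Ier3 (359 to 461) overlapped those of Zfp36 (374 to 427) and Fos (244 to 368), so its place there is not resolved.

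At 2 h after LPS, 8 of the 10 genes were higher than after PBS in small intestine libraries and 6 in colon libraries. Across all 13107 genes tested, 1.08% were called higher in small intestine and 0.74% in colon (edgeR quasi-likelihood test, Benjamini-Hochberg adjusted p below 0.05 over all genes). Genes called in either direction made up 1.1% and 0.778%. The median log2 fold change of the 10 genes was 2.49 in the small intestine, where that of all genes was -0.02, and 1.92 in the colon, where that of all genes was -0.0022. Junb, Egr1, Ier2, Ier3, Nr4a1 and Zfp36 were called in both regions, Jun and Atf3 in the small intestine, and Fos and Fosb in neither.

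Among the AP-1 genes, Junb had the largest fold change. Its 4 PBS libraries of the small intestine had 37.3, 76.5, 103 and 117 CPM and its 4 LPS libraries 1587, 1097, 1927 and 1130. In the colon the values were 89.1, 254, 91.4 and 129 CPM after PBS and 1048, 1551, 1360 and 1641 after LPS. Every LPS library lay above every PBS library of its region. The log2 fold changes were 4.10 ± 0.41 (SE; adjusted p = 3.37e-05, edgeR) and 3.31 ± 0.40 (adjusted p = 0.000301, edgeR).

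Jun followed in the small intestine with a smaller step. It had 89.9, 162, 218 and 146 CPM after PBS and 423, 531, 666 and 376 after LPS there, and its log2 fold change was 1.70 ± 0.28 (adjusted p = 0.00299, edgeR). In the colon Jun had 238, 342, 175 and 225 CPM after PBS and 361, 376, 444 and 514 after LPS. The groups do not overlap in the colon either, but the closest libraries are near each other, and the log2 fold change of 0.79 (95% interval 0.20 to 1.38) did not pass (adjusted p = 0.416, edgeR).

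Fos, the best known of these genes, was already abundant after PBS. Its small intestine libraries had 184, 628, 485 and 548 CPM after PBS and 794, 685, 1007 and 490.2 after LPS. Its colon libraries had 146, 827, 246 and 322 CPM after PBS and 719, 515, 776 and 598 after LPS. The groups overlap in both regions. The log2 fold change was 0.69 (95% interval -0.25 to 1.63) in the small intestine and 0.76 (-0.18 to 1.70) in the colon, and neither passed. Fosb was low, with 1.67 to 14.1 CPM in the PBS libraries and 0.601 to 30.2 in the LPS libraries. Its intervals and those of Atf3 were the widest at 2 h, and its estimates of 0.70 ± 0.90 and 1.28 ± 0.92 did not pass.

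**Figure D1:**
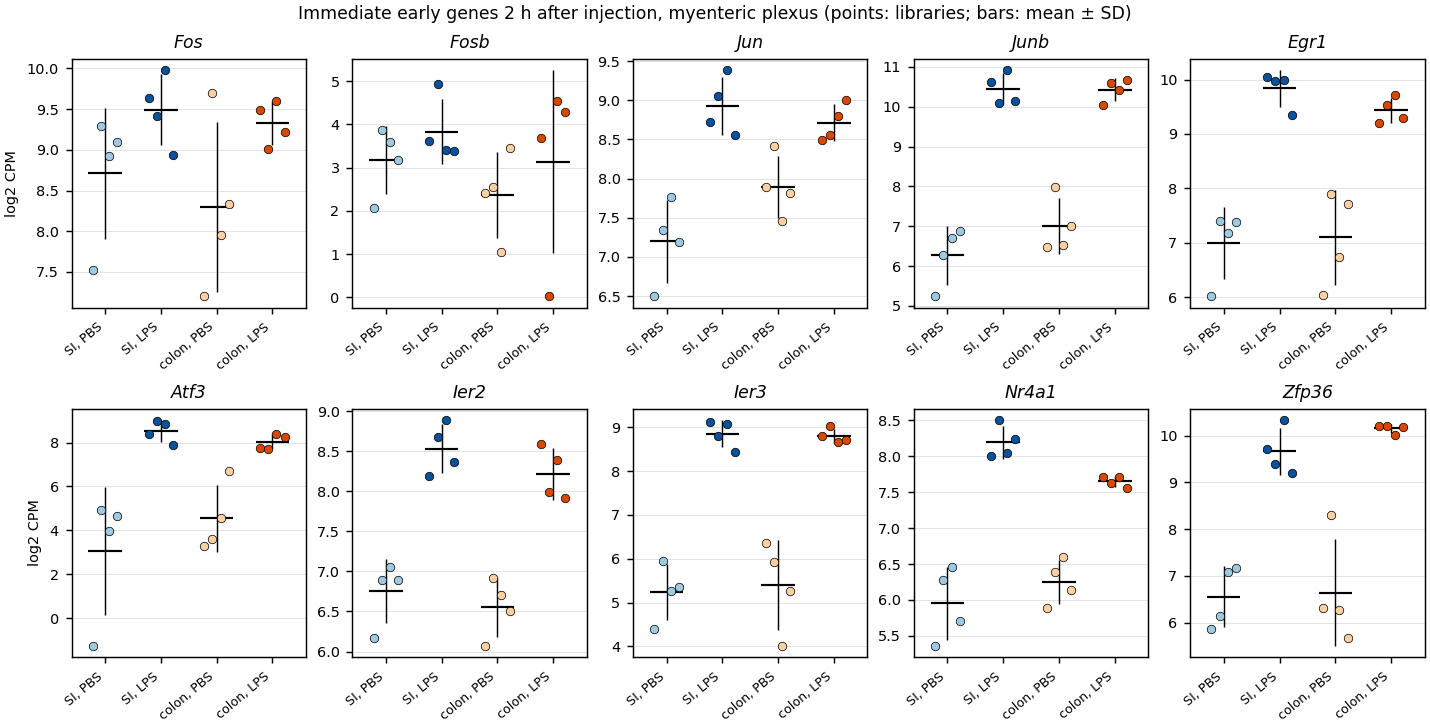
Level of the 10 genes 2 h after injection, as log2 CPM (y axis), in the small intestine (SI) and colon myenteric plexus after PBS or LPS; each point is 1 library and the bars give the mean ± SD of 4 libraries. The LPS points stand above all PBS points of their region for every gene but Fos and Fosb, whose groups overlap.

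Egr1 rose in both regions. It had 64.3, 169, 144 and 166 CPM after PBS and 1051, 1001, 1023 and 648 after LPS in the small intestine (log2 fold change 2.78 ± 0.38, adjusted p = 0.000573, edgeR). In the colon it had 65.3, 237, 107 and 209.8 CPM after PBS and 588, 743, 839 and 629 after LPS (2.18 ± 0.38, adjusted p = 0.00673, edgeR). Every LPS library stood well above the PBS libraries, and the 4th LPS library of the small intestine was the low one of its group.

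Nr4a1 rose too, by less. Its small intestine libraries had 40.6, 77.0, 87.9 and 51.9 CPM after PBS and 256, 362, 264 and 301 after LPS (log2 fold change 2.20 ± 0.26, adjusted p = 0.000127, edgeR). The colon libraries had 58.8, 83.2, 96.4 and 70.3 CPM after PBS and a narrow 209, 198, 209 and 187 after LPS (1.38 ± 0.25, adjusted p = 0.0109, edgeR). The colon call was lost without PBS colon replicate 1 (adjusted p = 0.0543, edgeR) or replicate 4 (0.0501), with estimates of 1.27 and 1.35.

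Atf3 started from low levels. It had 0, 29.7, 15.1 and 24.9 CPM after PBS and 333, 507, 467 and 237 after LPS in the small intestine, and its log2 fold change was 4.48 ± 0.94 (adjusted p = 0.0221, edgeR). In the colon it had 9.33, 11.9, 23.3 and 104 CPM after PBS and 218, 208, 336 and 309 after LPS, a log2 fold change of 2.85 (95% interval 1.01 to 4.69) that did not pass (adjusted p = 0.275, edgeR). No LPS library overlapped a PBS library in either region, but the PBS libraries themselves were far apart. The small intestine call was lost without PBS replicate 2, 3 or 4 (adjusted p = 0.05003, 0.0879 and 0.0700, edgeR) and without LPS replicate 3 (0.0534), and when the 2 groups were fitted alone (0.0550).

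Ier3 and Ier2 rose in both regions. Ier3 had 20.8, 60.9, 37.9 and 40.7 CPM after PBS and 556, 443, 538 and 348 after LPS in the small intestine (log2 fold change 3.56 ± 0.42, adjusted p = 0.000144, edgeR). It had 81.9, 60.8, 15.7 and 38.1 CPM after PBS and 449, 522, 406 and 420.2 after LPS in the colon (3.19 ± 0.42, adjusted p = 0.000629, edgeR). The Ier3 groups are far apart in both regions.

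Ier2 moved less, from 71.6, 119, 133 and 118 CPM to 293, 409, 475 and 331 in the small intestine (1.77 ± 0.26, adjusted p = 0.000954, edgeR). In the colon it went from 66.7, 121, 104 and 90.5 CPM to 387, 254, 335 and 241 (1.67 ± 0.26, adjusted p = 0.00305, edgeR). Its groups do not overlap in either region.

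Zfp36, the decay factor whose own message carries the AU-rich nonamer shown above, rose in both regions. It had 57.6, 69.7, 134 and 143 CPM after PBS and 846, 676, 1295 and 585 after LPS in the small intestine (log2 fold change 3.07 ± 0.50, adjusted p = 0.00244, edgeR). In the colon it had 79.1, 313, 77.0 and 50.6 CPM after PBS and 1191, 1185, 1042 and 1163 after LPS (3.14 ± 0.50, adjusted p = 0.00366, edgeR). Among the PBS colon libraries replicate 2 stood alone at the high end, and it was the highest of its group for 6 of the 10 genes. Small intestine PBS replicate 1 was the lowest of its group for all 10 genes.

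**Figure D2:**
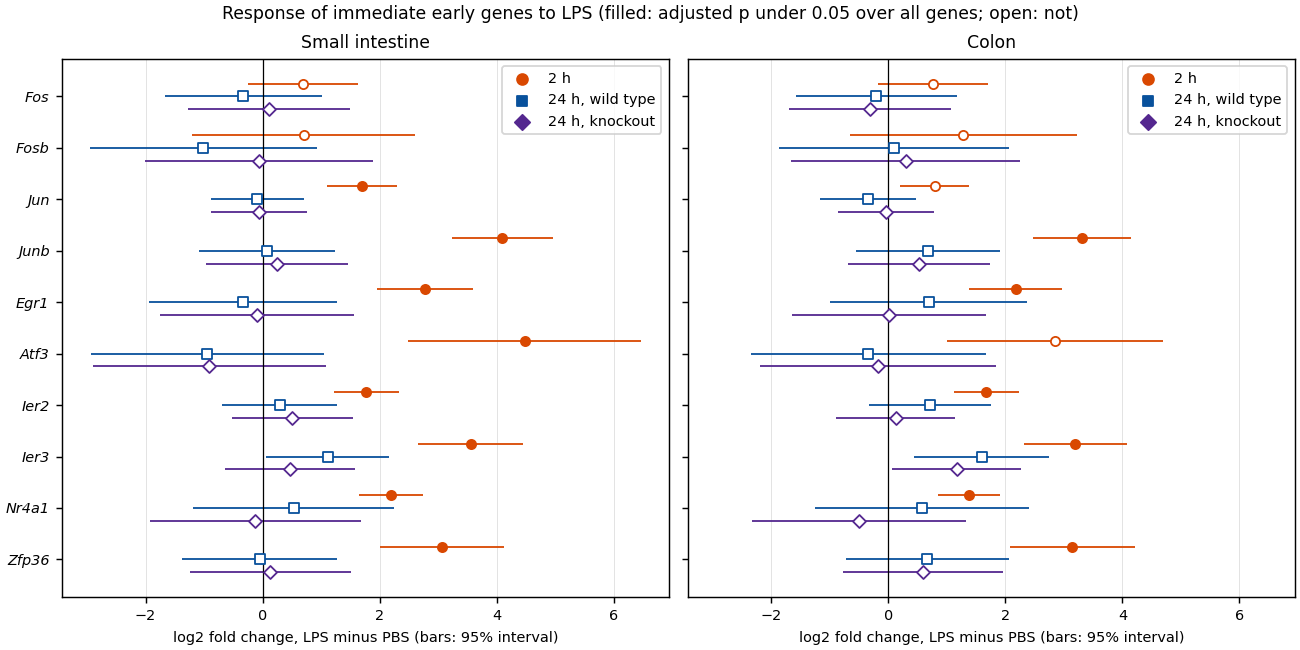
Log2 fold change of LPS against PBS (x axis) with 95% intervals for the 10 genes, at 2 h and, by genotype, at 24 h, in the small intestine (left) and colon (right); filled symbols passed the test over all genes. At 2 h, 8 and 6 symbols are filled, and at 24 h none is.

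The size of the response at 2 h was not shown to differ between the regions for any of the 10 genes: the test of the difference called 0 of them and 0% of all genes. At unadjusted p values below 0.05 there were 2, Jun (colon response lower by 0.90 ± 0.39 on the log2 scale, unadjusted p = 0.0341, edgeR) and Nr4a1 (lower by 0.82 ± 0.35, unadjusted p = 0.0323, edgeR). None of the 10 genes was called between the PBS libraries of colon and small intestine, where 0.221% of all genes were. These comparisons share their PBS libraries with the responses above.

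A list of 40 other immediate early and early-response genes, of which 38 were tested, had 16 higher and 0 lower in small intestine (median log2 fold change 2.03) and 8 higher and 0 lower in colon (median 1.41). The zinc finger gene Egr2 (2 of 4 PBS libraries at 0, none after LPS) and the phosphatase gene Dusp2 had the largest called increases in the small intestine, 6.81 ± 1.40 and 6.18 ± 1.12. Csrnp1 rose by 5.77 ± 0.81 in the small intestine and by 3.31 ± 0.71 in the colon on the log2 scale. The growth-arrest gene Gadd45b was at 6.18 to 27.8 CPM after PBS and 247 to 357 after LPS in the small intestine (4.29 ± 0.49), and at 10.3 to 53.3 and 217 to 275 CPM in the colon (3.02 ± 0.46). Myc, a growth regulator (4.90 ± 0.74), and Gadd45g (3.40 ± 0.63) had the largest increases in the colon. Of 20 genes for the kinases and transcription factors that act upstream, such as Srf, Elk1 and Creb1, 0 were called in either region, with medians of -0.10 and 0.02.

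Heat shock and chaperone genes, which accompany immediate early genes when tissue is dissociated warm, did not pass at 2 h: 0 of 13 were called in either region, with median log2 fold changes of 0.43 and 0.24. Their summed level was 3089 to 4326 CPM after PBS and 3401 to 7762 after LPS in the small intestine, and 3023 to 3925 and 2810 to 6727 CPM in the colon, so the ranges overlap. None of the 10 glial, 5 macrophage, 5 fibroblast or 5 smooth muscle markers was called at 2 h in either region. The 5 neutrophil markers were at 0 in all 8 PBS libraries and summed to at most 156 CPM after LPS in small intestine libraries and 5.57 in colon libraries. Of 2 lymphocyte markers tested, 1 was higher in the small intestine. The part of tissue handling in the levels of these genes was not tested.

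At 24 h after injection, 0 of the 10 genes were called for LPS in either genotype or region, in 40 tests of which 3 had an unadjusted p below 0.05 (edgeR). The comparisons at 24 h share libraries with each other. The share of all 14903 genes called was 7.17% in wild-type small intestine, 7.96% in wild-type colon and 0.718% in each region of the knockout. The median log2 fold change of the 10 genes was -0.07 in wild-type small intestine, 0.62 in wild-type colon, 0.02 in knockout small intestine and 0.07 in knockout colon, beside medians of all genes from -0.13 to -0.03. The 24 h libraries come from another table, normalised on its own, so their levels are not set against those at 2 h.

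Ier3 had the 3 unadjusted p values below 0.05. In wild-type colon it had 173, 78.7, 62.5 and 71.1 CPM after PBS and 435, 249, 109.7, 484 and 176 after LPS. Only the highest PBS library, of mouse 14, overlaps the LPS group, which also has 1 library below it. The log2 fold change was 1.59 (95% interval 0.44 to 2.74, adjusted p = 0.0719, edgeR). It passed with DESeq2 (1.61, adjusted p = 0.0231). Without the 4 wild-type libraries whose Gpr37 counts lie within the knockout range, 3 of them in this LPS group, it did not (1.86, adjusted p = 0.142, edgeR).

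In knockout colon Ier3 had 101, 158, 89.3, 62.0 and 222 CPM after PBS and 220.3, 473, 223 and 216 after LPS (1.16 ± 0.54, adjusted p = 0.370, edgeR). In wild-type small intestine it had 50.5, 108 and 302 CPM (lowest, median and highest of 6) after PBS and 181, 139, 283 and 562 after LPS (1.11 ± 0.51, adjusted p = 0.198, edgeR). These groups overlap. In knockout small intestine it had 168, 326, 78.7 and 47.1 CPM after PBS and 258, 347, 113, 107 and 241 after LPS (0.46 ± 0.55), again with overlap.

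Fos after 24 h overlapped between treatments. Wild-type colon libraries had 2065, 1109, 842 and 456 CPM after PBS and 863, 875, 259, 2319 and 526 after LPS. Knockout small intestine libraries had 2137, 2504, 499 and 861 CPM after PBS and 3992, 1857, 343, 509 and 1377 after LPS. Neither treatment stood apart, and the log2 fold changes of Fos ran from -0.33 ± 0.66 to 0.11 ± 0.68 over the 4 comparisons.

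Junb, which had the clearest response at 2 h, had 659, 392, 262 and 236 CPM after PBS and 639, 501, 371, 1325 and 252 after LPS in wild-type colon at 24 h. The groups overlapped and the log2 fold change was 0.67 ± 0.60. In wild-type small intestine the PBS libraries ran from 92.1 to 1461 CPM with a median of 388, and the LPS libraries had 321, 234, 718 and 912. The estimate there was 0.08 ± 0.57.

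Atf3 had the widest spread of the 10 genes at 24 h. Its wild-type colon libraries had 164, 55.8, 35.9 and 24.0 CPM after PBS and 103, 62.9, 1.18, 88.2 and 20.1 after LPS. The pooled within-group SD of log2 CPM was 1.80 for Atf3, 1.60 for Fosb, 1.52 for Nr4a1, 1.37 for Egr1, 1.12 for Fos and Zfp36, 0.94 for Junb, 0.84 for Ier3, 0.81 for Ier2 and 0.63 for Jun. The median over genes was 0.68. All but Jun lay above that median, which is taken over genes of unlike level. Among the 500 genes of nearest level the SD of Jun stood at percentile 76.6, and those of the others from 85.4 (Ier2) to 97.6 (Atf3). All 10 were thus more variable within groups than most genes of their level. The standard errors of the LPS comparisons at 24 h were 0.39 to 0.99 over the 10 genes.

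**Figure D3:**
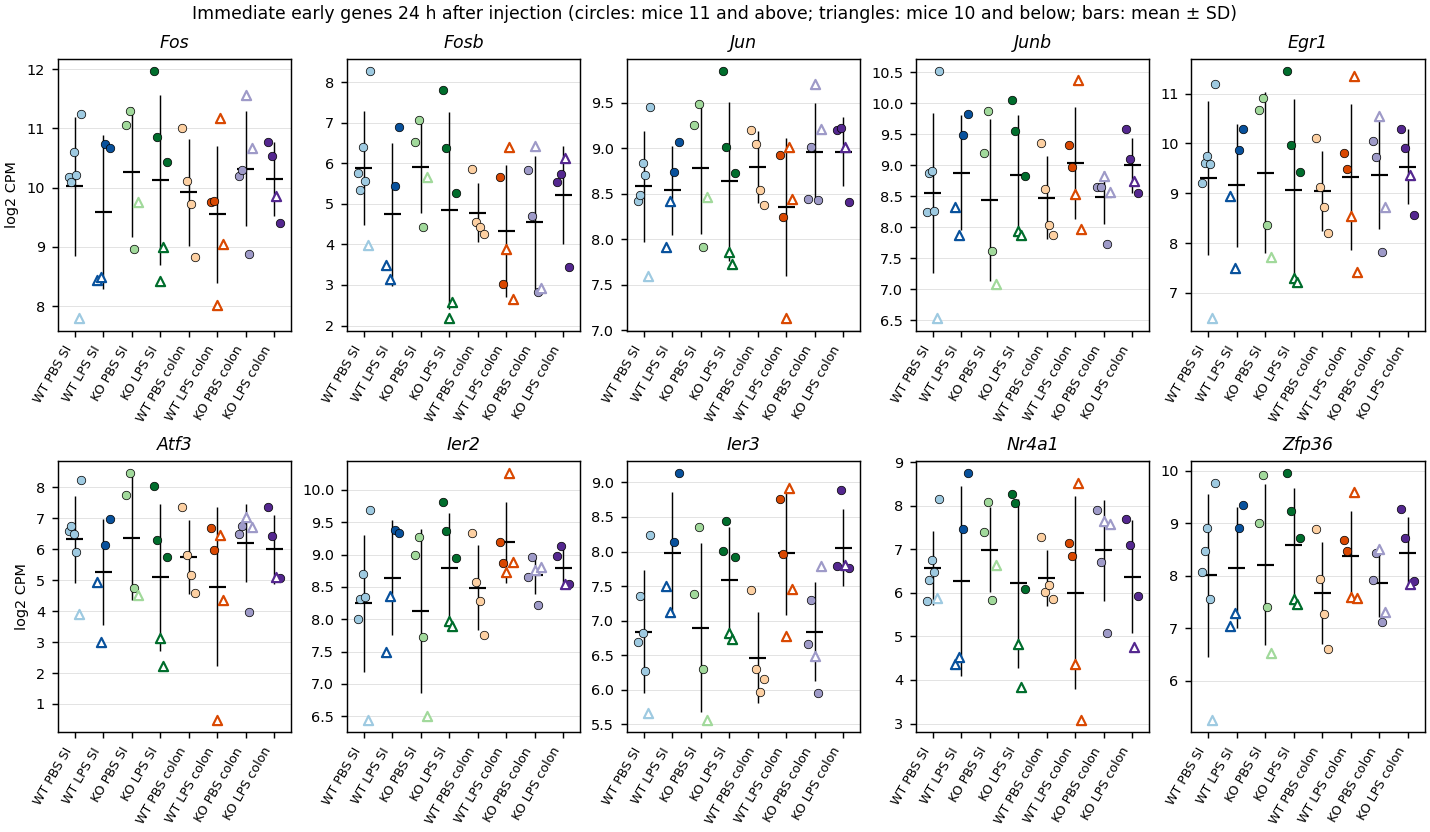
Level of the 10 genes 24 h after injection as log2 CPM (y axis) in the 8 groups of wild-type (WT) and knockout (KO) mice; each point is 1 library, triangles are mice numbered 10 and below, and bars give the mean ± SD. The spread within groups differs between genes and groups, and the ranges of treatments and genotypes overlap for every gene.

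Of 39 other early-response genes tested at 24 h, 4 were called in wild-type colon and 1 in wild-type small intestine, near or below the shares of all genes (7.96% and 7.17%). In the colon 3 were higher, among them Gadd45b (2.34 ± 0.60) and the AP-1 gene Fosl2 (1.58 ± 0.49). The matrix gene Ccn2 was lower in small intestine (-1.66 ± 0.50) and colon (-1.84 ± 0.50). Among the 20 upstream genes, Mapkapk2 was higher (0.83 ± 0.25) and Mapk3 lower (-1.004 ± 0.23) in small intestine. Of the 13 heat shock genes, Hsph1 was lower in both regions (-2.83 ± 0.69 and -2.29 ± 0.65) and Dnaja1 lower in colon (-1.03 ± 0.27). In the knockout comparisons 0 genes of these 3 lists were called, and the interaction of genotype and LPS called 0% of all genes, so a difference between genotypes was not shown. Without the 4 wild-type libraries whose Gpr37 counts lie within the knockout range, 373 genes in place of 1186 were called in wild-type colon and 1045 in place of 1069 in small intestine (edgeR). The knockout comparisons in the same fit called 199 genes in colon and 208 in small intestine, in place of 107 in each. Of the genes named here Gadd45b in colon (2.60 ± 0.67), and Mapk3 (-0.97 ± 0.25) and Hsph1 (-2.40 ± 0.60) in small intestine, were still called. Calls were lost for Fosl2 (1.74), Ccn2 (-1.21), Hsph1 (-2.12) and Dnaja1 (-0.83) in colon, and for Ccn2 (-1.36) and Mapkapk2 (0.61) in small intestine. Markers of neutrophils, white blood cells that enter tissue in inflammation, moved with LPS in these libraries. Their 5 genes summed to at most 143 CPM after PBS and, after LPS, to 9.32 to 2159 CPM in wild-type colon and 7.41 to 813 in wild-type small intestine. Of the 4 tested, all were higher in wild-type small intestine and 1 in wild-type colon. Fibroblast markers were lower for 2 of 5 in each region of the wild types. Their sums were 13545 to 21763 CPM after PBS and 659 to 8597 after LPS in wild-type colon, with no overlap, and 1739 to 12196 and 650 to 9615 in small intestine. Mesothelial markers, of the outer lining of the gut, summed to 499 to 2355 CPM after PBS and 145 to 321 after LPS in wild-type small intestine, also apart, although 0 of 4 were called. Glial markers had 3 of 10 lower in wild-type colon, and 1 higher and 1 lower in small intestine. The part of these cells in the calls named here was not tested.

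Loss of Gpr37 was followed by no called change in the 10 genes. In the 4 comparisons of knockout with wild type 0 of 40 tests passed and 0 had an unadjusted p below 0.05 (edgeR), where the shares of all genes called were 0%, 0.0134%, 0% and 0.429% (small intestine after PBS and LPS, colon after PBS and LPS). The median difference of the 10 genes, knockout minus wild type, was 0.21, 0.33, 0.32 and -0.04 in that order. The largest single estimates were 0.80 ± 0.90 for Nr4a1 in colon after PBS and 0.67 ± 0.69 for Fos in small intestine after LPS, both within their error. Leaving out the 4 wild-type libraries within the knockout range of Gpr37 counts also called 0 of the 10 genes for genotype or LPS. Of all genes, it called 0 in place of 64 for genotype in LPS colon. The 2 interactions of genotype and LPS called 0 of 20 tests, and the comparisons of colon with small intestine after PBS 0 of 20, where 0.141% (wild type) and 0.0805% (knockout) of all genes were called.

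The mice at 24 h are numbered, and 12 libraries came from mice numbered 10 and below and 25 from mice 11 and above; what the numbers stand for is not given in the labels. The division at 10 is not in the labels either: it was found in these data, so the values across it are a description with no test and support nothing. Median levels were 182 against 409 CPM for Zfp36, 518 against 1262 for Fos, 292 against 863 for Egr1, 21.4 against 89.1 for Atf3 and 27.4 against 115 for Nr4a1. Of the 7 groups with mice on both sides of the division, 5 had a lower median in the low-numbered mice for all 10 genes. Colon of knockouts after PBS had the opposite order for all 10 (2 libraries against 3), with medians of 2329 against 1170 CPM for Fos, 713 against 348 for Jun and 195 against 104 for Nr4a1. With the group means accounted for, the log2 estimates of the 10 genes were all negative, from -1.86 ± 0.60 for Atf3 to -0.42 ± 0.23 for Jun, with -1.26 ± 0.39 for Zfp36. Negative estimates were also given by 35 of 39 other early-response genes (median -0.82), 10 of 13 heat shock genes (median -0.34) and 56.2% of all 14903 genes (median -0.08). The low-numbered mice fall unevenly over the groups: they give 1 of 10 wild-type PBS libraries but 5 of 9 wild-type LPS libraries, and 3 of 9 in knockouts after either injection. The same libraries had a median of 15.4% of counts from mitochondrial genes, against 4.57%. Their summed neutrophil markers had a median of 156 CPM against 0.725, and their fibroblast markers 1609 against 10424. Summed epithelial markers had similar medians (80.5 and 65.9 CPM). They were 3239 and 4708 CPM in wild-type colon of mice 3 and 8 after LPS, where the neutrophil sums were 2159 and 1758 CPM. High epithelial sums are not said to be particular to the low-numbered mice, as single libraries of the others are not listed here. The part of any of these in the levels was not tested.

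Colon and small intestine were both sequenced from 15 of the 24 h mice. Taken as deviations from the mean of each treatment and genotype, the correlation between the regions ran from 0.475 (Ier2) to 0.880 (Egr1), with a median of 0.739 over the 10 genes. Over 9397 genes of at least 3 log2 CPM the median was 0.143 and the 90th percentile 0.588. Adjusted over all genes, none of these correlations passed. With 82944 reassignments of mice the smallest possible p is 1.21e-05, and over 14886 genes a gene alone at that p could not pass. The adjusted result therefore cannot decide whether the regions of a mouse go together. Mouse 14 was the highest library of the wild-type PBS group for all 10 genes in both regions, with Egr1 at 1098 CPM in colon and 2352 in small intestine.

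For Egr1 Pearson's r was 0.880 (exact permutation within groups, p = 0.000699) and Spearman's rho 0.861 (exact permutation p = 0.000735). For Zfp36 r was 0.878 (exact permutation p = 9.65e-05) and rho 0.836 (exact permutation p = 0.000627). For Nr4a1 and Junb r was 0.853 and 0.805. Over the 10 genes the unadjusted exact permutation p of r ran from 9.65e-05 to 0.126 and was above 0.05 for Ier3 (0.126), Atf3 (0.0870) and Ier2 (0.0869), while Jun had 0.0441 for r and 0.103 for rho. Without the 2 mice farthest from the median, r ran from 0.212 (Ier3) to 0.889 over the 10 genes. Ier3 had r = 0.485 over all 15 mice and 0.895 over the 12 mice numbered 11 and above, where leaving out the 2 farthest gave 0.904. Adjusted over the 14886 genes tested, 0 members and 0% of genes passed (adjusted p of the members 0.224 to 0.687, exact permutation), from which no conclusion is drawn given the smallest possible p. In the 12 mice numbered 11 and above r ran from 0.589 to 0.960. The 2 libraries of a mouse share the animal and possibly the handling session, which cannot be told apart.

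**Figure D4:**
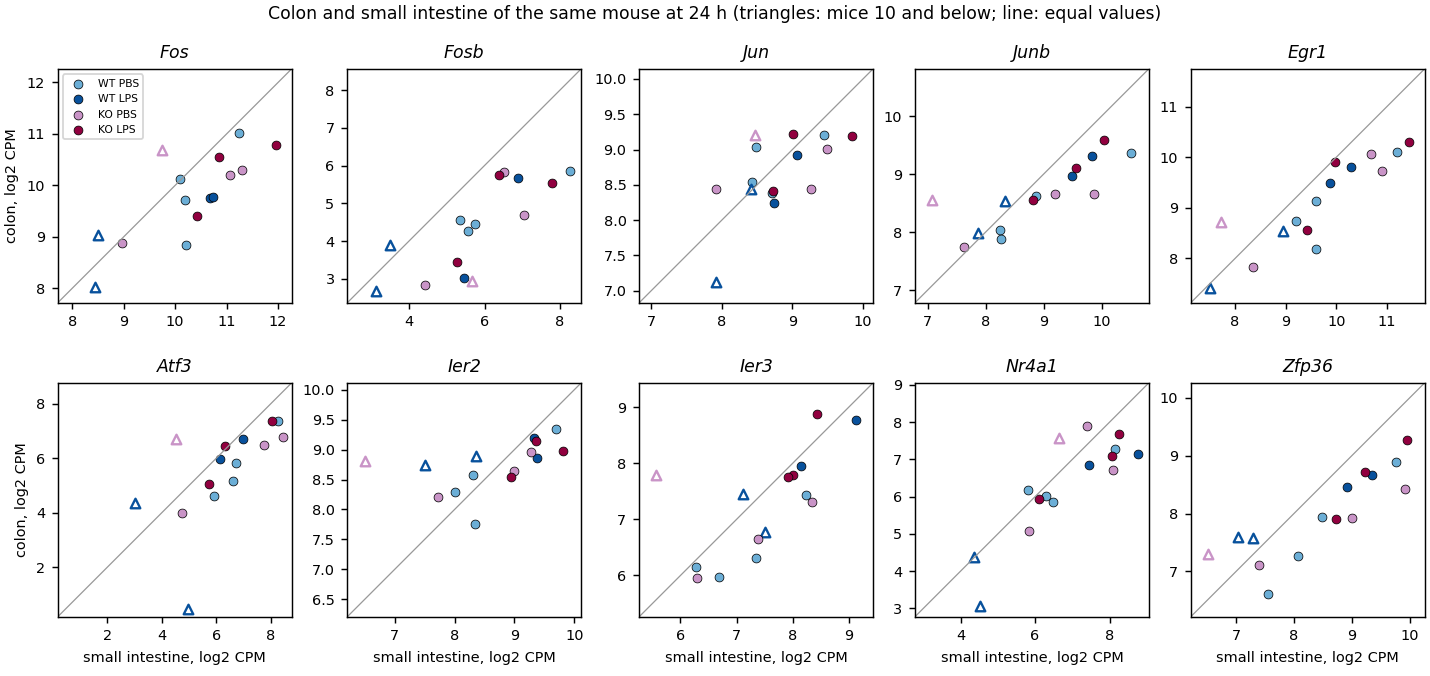
Colon (y axis) against small intestine (x axis) of the same mouse at 24 h, both as log2 CPM, for the 10 genes; each point is 1 of 15 mice, coloured by genotype and treatment, triangles are mice numbered 10 and below and the line marks equal values. The correlation r ran from 0.475 for Ier2 to 0.880 for Egr1. None passed after adjustment over all genes, which a gene alone at the smallest possible p could not do.

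In untreated mice, 7 of the 10 genes were higher in the submucosal than in the myenteric libraries of the colon, where 21.8% of 14090 genes were called and 10.7% called higher (edgeR). Of the 10, 2 were higher in the small intestine (Junb and Zfp36) and 1 lower (Nr4a1). There 43.5% of genes were called, 22.3% higher and 21.2% lower. The share of the 10 genes called in the small intestine is thus below that of all genes. The colon count was 4 without myenteric replicate 1 or without submucosal replicate 4 or 5, when Fos, Fosb and Ier3 were not called. The small intestine count was 5 without myenteric replicate 6, when Fos, Fosb and Atf3 were called too and Nr4a1 was not. The median log2 difference of the 10 genes was 1.26 in colon and 0.40 in small intestine, beside -0.0057 and 0.06 for all genes. The interaction of region and plexus called 0 of the 10 genes, against 1.19% of all genes, so the plexus difference was not shown to differ between regions. All 10 estimates were positive (colon difference larger, by 0.37 to 1.34 on the log2 scale, median 0.77), and 2 had an unadjusted p below 0.05, Atf3 (1.34 ± 0.60) and Nr4a1 (1.32 ± 0.59).

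Fos had 436, 699, 926, 671 and 940.4 CPM in the colon myenteric libraries and 1788, 895, 2244, 2181 and 1644 in the submucosal ones (log2 difference 1.25 ± 0.38, adjusted p = 0.0225, edgeR). The groups overlap only through the submucosal replicate 2, the second value. Fos in the small intestine had 479, 557 and 1742 CPM (lowest, median and highest of 6) in the myenteric plexus and 608, 980.0 and 2142 in the submucosal plexus, with overlap and no call (edgeR).

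Junb had 154, 241, 215, 163 and 225 CPM in the colon myenteric libraries and 839, 232, 976, 1034 and 653 in the submucosal ones (1.90 ± 0.47, adjusted p = 0.00653, edgeR). All submucosal libraries but replicate 2 lay far above the myenteric range. Junb in the small intestine was at 111, 178 and 540.0 CPM (lowest, median, highest) and 142, 508 and 963, with overlapping ranges (1.16 ± 0.42, adjusted p = 0.0284, edgeR). That call was lost when the small intestine groups were fitted alone and without any 1 of 6 of the 12 libraries.

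Zfp36 was called in both regions. It had 134, 178, 327, 146 and 201 CPM in the colon myenteric and 755, 266, 832, 1069 and 921 in the submucosal libraries (1.96 ± 0.44, adjusted p = 0.00369, edgeR). The small intestine libraries had 146, 182 and 519.6 CPM (lowest, median, highest) in the myenteric and 268, 707 and 1254 in the submucosal plexus (1.56 ± 0.40, adjusted p = 0.0032, edgeR). Replicate 2 was again the low submucosal library in the colon.

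Atf3 had 46.5, 40.8, 40.1, 39.4 and 33.6 CPM in the colon myenteric libraries, the tightest group of any of the 10 genes in untreated mice, and 241, 39.9, 303, 189 and 167 in the submucosal ones (2.23 ± 0.46, adjusted p = 0.00194, edgeR). Jun (1.00 ± 0.28, adjusted p = 0.0154, edgeR), Fosb (1.59 ± 0.57, adjusted p = 0.0487, edgeR) and Ier3 (1.27 ± 0.44, adjusted p = 0.0416, edgeR) were also higher in the colon submucosal plexus. Fosb was at 6.05 to 29.5 CPM in the myenteric and 10.3 to 70.3 in the submucosal libraries, and Ier3 at 21.1 to 39.4 and 42.7 to 116, the latter without overlap. Fosb was no longer called without a filter on low counts (adjusted p = 0.0521, edgeR), and Ier3 with sex as a covariate (adjusted p = 0.0719, edgeR). Ier2 missed the threshold at 0.91 ± 0.34 (adjusted p = 0.0583, edgeR).

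Nr4a1 and Egr1 did not follow the others. Nr4a1 had 60.02, 108, 128, 94.6 and 124 CPM in the colon myenteric and 118, 79.6, 119, 110.4 and 174 in the submucosal libraries, a difference of 0.22 ± 0.44. In the small intestine it was lower in the submucosal plexus (60.9, 99.5 and 261 CPM against 8.63, 63.7 and 84.7 as lowest, median and highest; -1.10 ± 0.40, adjusted p = 0.0314, edgeR). The call was lost when the 2 groups were fitted alone (adjusted p = 0.0671, edgeR) and without the myenteric replicate 6 (-0.68, adjusted p = 0.15, edgeR), the highest library of its group for all 10 genes. Egr1 had 191 to 613 CPM in the colon myenteric and 136 to 524 in the submucosal libraries, a difference of -0.13 ± 0.45.

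**Figure D5:**
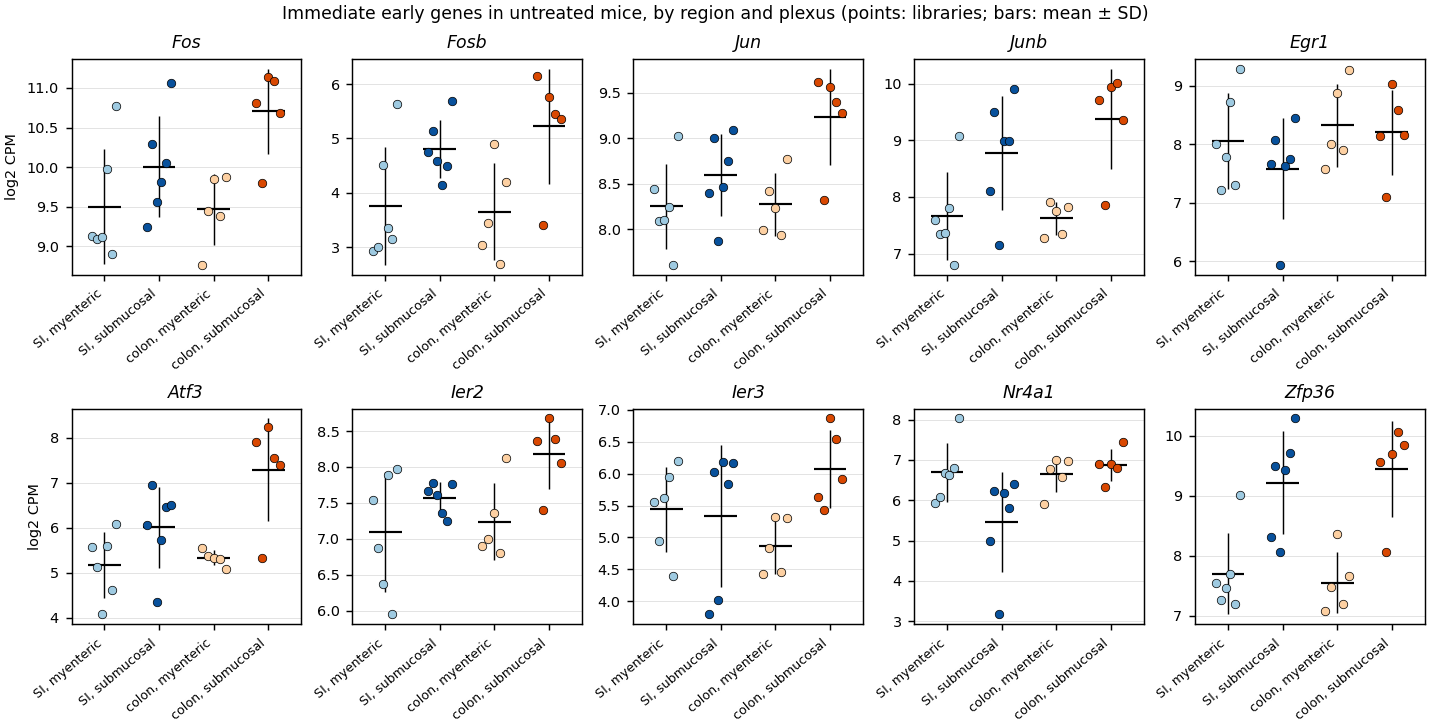
Level of the 10 genes in untreated mice as log2 CPM (y axis) by region and plexus; each point is 1 library and bars give the mean ± SD of 5 or 6 libraries. In the colon the submucosal points lie above the myenteric ones for most genes, except for 1 low submucosal library, and Egr1, Nr4a1 and Ier2 overlap beyond that library.

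The plexuses also differed in their cells. Glial markers were lower in the submucosal libraries for 5 of 10 genes in colon and 10 of 10 in small intestine. Macrophage markers were higher for 4 of 5 and 5 of 5, with sums of 44.1 to 283 CPM in colon myenteric and 67.6 to 2418 in colon submucosal libraries, and of 62.3 to 1188 and 1121 to 6257 in small intestine. Lymphocyte and plasma cell markers were higher for 5 of 5 in each region, with sums of 3.07 to 296 and 729 to 44927 CPM in colon, and 3.33 to 1086 and 14016 to 131683 in small intestine. Smooth muscle markers were lower for 5 of 5 in each region, with sums of 6500 to 20510 CPM in colon myenteric against 714 to 2736 in submucosal libraries, and of 1121 to 7738 against 58.2 to 908 in small intestine. Epithelial markers were higher for 2 of 5 in colon (3.76 to 1341 against 1164 to 4490 CPM) and 5 of 5 in small intestine (4.90 to 149 against 939.9 to 3995). Neuronal markers were lower for 4 of 6 and 6 of 6, and mesothelial markers for 4 of 4 in each region. The colon submucosal replicate 2, the lowest of its group for all 10 early genes, also had the lowest macrophage sum (67.6 CPM) and the highest glial sum (5931) there. Without it Ier2 was called as well (adjusted p = 0.0305, edgeR). The part of these cells in the levels was not tested.

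Of 13 heat shock genes, 5 were called between the plexuses in colon and 6 in small intestine, where 21.8% and 43.5% of all genes were called. In the colon 1 was higher in the submucosal libraries (Dnajb1, 0.92 ± 0.30) and 4 were lower, among them Hspb1 (-2.31 ± 0.55) and Hsph1 (-1.41 ± 0.35). Small intestine had 2 higher (Hspe1, 1.00 ± 0.29, and Hspd1, 0.88 ± 0.19) and 4 lower, with Hspb1 (-2.84 ± 0.52) and Bag3 (-1.43 ± 0.23) in the lead. Of 37 other early-response genes tested, 8 were higher and 2 lower in colon, and 8 higher and 9 lower in small intestine. Myc (2.504 ± 0.39 in colon, 2.89 ± 0.36 in small intestine) and Btg1, an antiproliferative gene (2.13 ± 0.52 and 2.14 ± 0.48), were higher in both regions. Dusp1, the phosphatase that switches off MAP kinases, was higher in colon (1.69 ± 0.47), while Ccn2 (-3.38 ± 0.44) and Ccn1 (-1.78 ± 0.36) were lower in small intestine. Of 20 upstream genes, 1 was higher and 3 lower in colon and 4 higher and 4 lower in small intestine, led in both by the kinase gene Rps6ka1 (3.05 ± 0.58 and 3.24 ± 0.54).

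Between colon and small intestine, 0 of the 10 genes were called in either plexus of untreated mice, against 3.19% of all genes in the myenteric and 5.18% in the submucosal plexus. In the myenteric plexus the median log2 difference, colon minus small intestine, was -0.16. In the submucosal plexus it was 0.61 and all 10 estimates were positive, led by Atf3 (1.35 ± 0.42, adjusted p = 0.0642, edgeR). Atf3 passed there with DESeq2 (adjusted p = 0.0244) and without the colon submucosal replicate 2 (adjusted p = 0.0189, edgeR) or the small intestine submucosal replicate 2 (0.0351). The submucosal libraries of the 2 regions overlap for Atf3 only through that colon replicate 2, at 39.9 CPM, below the other 4 at 167 to 303 and within the small intestine range of 20.1 to 123.

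Within groups the 10 genes rose and fell together from library to library. Over the 38 untreated and 2 h libraries, after the group mean was subtracted, each gene's correlation with the mean of the other 9 ran from 0.537 (Fosb) to 0.896 (Junb), and over the 37 libraries at 24 h from 0.839 (Nr4a1) to 0.951 (Junb). The other gene most like their mean, of 9382 with at least 3 log2 CPM, was Junos, the antisense neighbour that shares bases with Jun (r = 0.857 over 38 libraries and 0.838 over the 37). It was followed by Dusp1 (0.828 and 0.742) and Socs3, a feedback inhibitor of cytokine signalling (0.813 and 0.905). Then came Pde4b (0.664 and 0.370), Gm2a (0.642 and 0.002), Ccrl2 (0.640 and 0.633), Gadd45b (0.633 and 0.820), Sipa1 (0.628 and 0.407), Dusp6 (0.626 and 0.475) and Lpcat2 (0.624 and 0.089). Of these 10 genes 5 were among the 100 most alike at 24 h as well, and Gm2a and Lpcat2 were near the median of all genes there. The median r of all these genes was 0.0045 and 0.101. Libraries share depth and composition, so these values describe the tables and carry no test.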

How the data were processed

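Bulk RNA was isolated with the RNeasy Plus Micro Kit and made into libraries by Smart-seq2, which carries no molecular identifiers, per the labels' protocols. The deposited values are whole-number gene counts. To make them, the authors used Trim Galore 0.4.4 and STAR 2.5.3 with GRCm38, and also name DESeq2, per the submitters' processing notes. The read counter, annotation and strand setting are not given in the sources used here. Groups were taken from the labels, and 75 libraries in 16 groups gave 21 comparisons.

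Counts were tested with edgeR 4.0.16 (R 4.3.3; TMM scaling, filterByExpr, quasi-likelihood test) with all groups of an experiment in 1 fit: 14090 genes in untreated mice, 13107 at 2 h and 14903 at 24 h. A gene was called at a Benjamini-Hochberg adjusted p below 0.05 over all genes tested. Errors are SEs of log2 fold changes unless marked. Levels are CPM of TMM-scaled libraries, and log2 CPM uses a prior count of 2. On data simulated from the 2 h libraries, the test recovered 36% of genes changed 4-fold and 64% of those changed 8-fold. The 143 pairs of replicate libraries all differed by more than sampling noise.

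The 10 members and all gene lists were chosen with earlier results of these data known. From each other list the text names up to 4 called genes per direction and comparison, those of largest log2 fold change at a mean log2 CPM of at least 3. The genes most alike are the 10 others with the highest Pearson r with the members' mean log2 CPM over the 38 untreated and 2 h libraries, after the group means were subtracted.

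Alternatives were DESeq2 1.42.0, its size factors in edgeR, testing without the filter on low counts, a covariate for sex, the compared groups alone, a replicate block, mouse number at 24 h and leaving out each library. Leaving out the 4 wild-type libraries with no more than 9 Gpr37 counts was added after seeing the data. The numbers were taken to pair libraries where r was over 0.1 in every same-numbered pair, which held only between colon and small intestine of the untreated myenteric plexus (r of 0.131 to 0.166, 5 pairs). At 24 h the 2 regions of a mouse are paired by its number. The replicate block changed no call in these paired comparisons.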

Additional observations from a re-analysis of the deposited data

Results flagged for a closer look

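In 19 of 160 sets of one gene in one group, 1 library lay farther from the others than Dixon's criterion at the 95% level allows; chance gives about 1 in 20, or 8. The untreated small intestine myenteric replicate 6 was high for Fosb (49.4 CPM), Junb (540.0), Nr4a1 (261) and Zfp36 (519.6). Mouse 14, wild type after PBS at 24 h, was high in the small intestine for Fosb (307 CPM), Junb (1461), Egr1 (2352), Atf3 (303) and Nr4a1 (282), and in the colon for Fosb (57.7), Ier3 (173) and Nr4a1 (156).

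At 2 h, LPS small intestine replicate 2 was high for Fosb (30.2 CPM) and replicate 4 low for Egr1 (648). Of the PBS colon libraries at 2 h, replicate 4 was high for Atf3 (104 CPM) and replicate 2 for Zfp36 (313). At 24 h, knockout LPS mouse 11 was high for Atf3 in small intestine (261 CPM), knockout LPS mouse 17 for Ier3 in colon (473) and wild-type LPS mouse 5 for Ier2 in colon (1227).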

How the results depend on the processing

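In 15 of the 21 comparisons none of the 10 genes was called under any alternative. For the 30 gene results called as reported (24) or under an alternative, 466 recomputed values gave 412 with the same direction and side of the threshold, 39 that no longer passed, 15 that newly passed and 0 reversed. Between the submucosal plexuses of colon and small intestine, where 0 genes were called, DESeq2 called 1 (Atf3) and leaving out single libraries 0 to 1. Leaving out single libraries gave 4 to 8 called genes for plexus in colon, 2 to 5 for plexus in small intestine, 7 to 8 for LPS at 2 h in small intestine and 5 to 6 in colon. Fitting the small intestine groups alone called 1 gene for plexus in place of 3. For LPS in wild-type colon at 24 h, DESeq2, the mouse number division as a covariate and the mice numbered 11 and above each called 1 gene (Ier3) in place of 0. The last 2 rest on a division found in these data and support nothing. The causes were not tested.

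With the replicate block, 1 gene (Atf3, adjusted p = 0.0437, edgeR) was called between the submucosal plexuses of colon and small intestine, and 6 in place of 7 between the plexuses of the colon, where Ier3 was lost (adjusted p = 0.0751, edgeR). Replicates there share only a sex and a number, so this is no paired design. The other 9 comparisons with a replicate block kept their counts.

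Of genes changed 2-fold in data simulated for small intestine, 8% were recovered for LPS at 2 h, 14% for LPS in wild types at 24 h and 22% for plexus. The parts of depth, group size and spread in this were not tested.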
